A study of Homo sapiens with 12 samples.

Results

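The effect of H89 in HepG2 cells with wild-type HDAC1 was measured by RNA sequencing, by setting 3 libraries of WT_HDAC1 cells with H89 against 3 libraries of the same genotype without it. The members were chosen by their labels for genotype and treatment, and they are 6 of the 12 libraries of the series. The other 6 carry HDAC1_S434A, again 3 without and 3 with H89, and are used here only to show where the wild-type response differs. HepG2 is an established human liver cancer cell line that still makes many plasma proteins of hepatocytes. The series states that the 3 replicates of a group are biological. The dose of H89, the time of exposure, the solvent in untreated cells, and whether the wild-type cells are parental or carry a construct were not stated in the labels.

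Protein kinase A (PKA) is held inactive by its regulatory subunits until cyclic AMP binds them and frees the catalytic subunits, which then phosphorylate cytosolic and nuclear proteins. One nuclear target is CREB, which binds the cAMP response element and recruits the coactivators CREBBP and EP300, and the CRTC proteins act beside it. In the liver this pathway carries the glucagon signal of fasting and switches on gluconeogenic genes such as PCK1 and G6PC1. H89 competes with ATP at the catalytic subunit, and it also inhibits other kinases, among them ROCK, the ribosomal S6 kinases and MSK1. HDAC1 removes acetyl groups from histones within corepressor complexes.

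Total counts ran from 27763604 to 37187794 in the 3 WT libraries without H89 and from 20223311 to 21922022 in the 3 with it. The libraries without H89 stood apart from all 9 other libraries of the series in make-up. Cytosolic ribosomal protein genes took 19.5 to 20.0% of their counts, 7.39 to 7.79% in WT with H89 and 7.95 to 11.5% in the S434A libraries. Mitochondrially encoded mRNAs took 1.48 to 1.51%, 4.91 to 6.26% and 3.16 to 7.02% in the same order. These shares moved with the treatment in wild-type cells, and their part in the gene results was not tested. No label gives a batch, and as these 3 libraries are the only WT baseline, no result could be had without them. The biological coefficient of variation was 0.019 without and 0.073 with H89, so a library without H89 varied little. Pairs of libraries differed by a chi-square per degree of freedom of 1.58 to 1.95 without H89 and 5.46 to 8.54 with it. A value near 1 is counting noise alone. The standard errors and p-values below measure the spread among these libraries, and how far it holds for further independent cultures was not tested. All 10 hepatocyte markers were tested, and their summed level was 72487 to 73385 CPM (TMM-scaled counts relative to library size) without H89 and 40089.7 to 42940.0 CPM with it. Of 8 fibroblast markers 1 was tested, with COL1A2, DCN and THY1 at 0 in every library and a sum of 17.9 to 18.6 CPM without and 17.9 to 19.1 CPM with H89. Of 9 blood markers 3 were tested and PTPRC, CD3E, HBB and MS4A1 were at 0. Their sum of 4330.0 to 4441 CPM without and 1699 to 1791 CPM with H89 was nearly all lysozyme, LYZ. Of 6 endothelial markers 2 were tested, KDR and EMCN were at 0, and the sum was 2.70 to 3.17 CPM without and 4.11 to 5.19 CPM with H89.

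A large part of the measured transcriptome differed in level between the WT libraries with and without H89. Treatment and a possible batch of the 3 libraries without H89 cannot be told apart. A gene was called when its fold change was over 2 and its adjusted p was under 0.05 by edgeR's quasi-likelihood test, the thresholds that the series design states, and "rose" and "fell" are used only of such genes. Changes are given on the log2 scale, with H89 minus without, so that 1 stands for a 2-fold difference. Of 14157 genes tested, 2644 rose (18.7%) and 2697 fell (19.1%), together 37.7%. At any fold 81.9% of the genes had an adjusted p under 0.05, and for 83.4% the 3 libraries with H89 did not overlap the 3 without. A share of a gene list near these percentages is therefore no result about the list. Over all genes the median change was 0.04 on the log2 scale, and a fit of all 12 libraries placed it at 0.20, so changes near 0 depend on the scaling. In RNA from a whole culture, fewer cells that make a transcript and less of it per cell cannot be told apart. Protein-coding genes were nearly even, with 2352 up and 2034 down of 11978, while 428 of 1382 long noncoding RNAs fell and 161 rose.

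The change followed the summed exon length of genes in the deposited annotation, which need not be that of the transcript made. In the tenth of genes with the shortest summed exons (median 956.5 bases), 51.1% fell and 7.28% rose, with a median log2 change of -1.04. In the tenth with the longest (median 13174.5 bases), 49.3% rose and 4.35% fell, with a median of 0.98. Spearman's rho between exon length and log2 change was 0.48 over 14017 genes, and that for GC content was -0.09, given as descriptions since genes share libraries. Values are therefore also given with each library's smooth trend on length and GC content removed, which left a rho of 0.03 for length. In that fit 1879 of 14017 genes rose (13.4%) and 2075 fell (14.8%), together 28.2%, and 56.8% of the 5292 genes called before with a GC value were called in the same direction. Whether the trend was made in the cells or in the libraries was not tested.

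**Figure D1:**
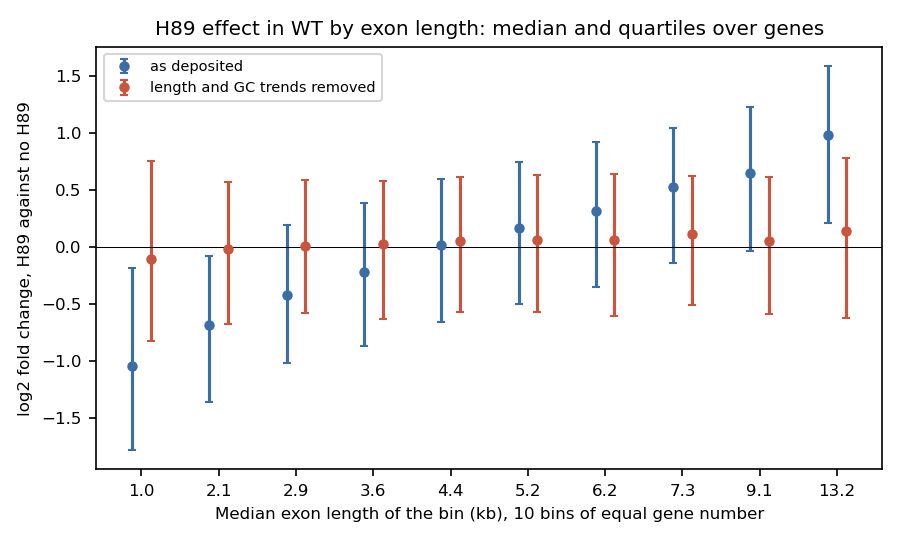
Median log2 fold change of H89 against no H89 in WT cells (y axis) in 10 bins of equal gene number ordered by exon length (x axis, median length of the bin in kb). Points are medians over genes and bars reach the quartiles. As deposited the medians climb from -1.04 to 0.98, and with the trends removed they lie between -0.11 and 0.15.

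The largest falls among genes called in both fits included a protease inhibitor, liver secretory and metabolic genes and a chemokine. CSTA, the gene of the cysteine protease inhibitor cystatin A (chr3:122044095-122060816, hg19), was at 17.4, 15.6 and 17.4 CPM without H89 and 0.665, 0.885 and 0.540 CPM with H89. The groups were far apart, with all libraries with H89 under 1 CPM. Its log2 fold change was -4.57 (SE 0.15, adjusted p = 6.79e-14), and -3.75 with the trends removed. HP, which encodes the haemoglobin scavenger haptoglobin (chr16:72088491-72094954, hg19), was at 2424, 2444 and 2333 CPM without H89 and 169, 165 and 187 CPM with H89. Its log2 change was -3.79 (SE 0.052), and -3.77 with the trends removed. That fit took its length as 5405 bases, its summed exons in the deposited annotation. CXCL8, the interleukin-8 chemokine gene, was at 37.1, 36.6 and 39.1 CPM without H89 and 2.62, 2.58 and 3.45 CPM with H89, a change of -3.71 (SE 0.10). The trypsin inhibitor gene SPINK1 fell from 87.9 ± 6.91 to 7.55 ± 0.808 CPM (SD, n = 3). HULC, a long noncoding RNA abundant in liver cancer, went from 93.0 ± 3.57 to 8.75 ± 0.804 CPM, or -3.41 on the log2 scale. With the trends removed it was at -4.501, in a fit that took its length as 48395 bases of summed exons. ARG1, the urea cycle arginase, was at 67.9, 69.6 and 68.9 CPM without H89 and 6.27, 5.70 and 8.43 CPM with H89, and every library with H89 was below every library without. The remaining largest falls were those of RPL9, GSTA2, DYDC2, SELENOK, RPS3A, HPR, MT-TN, LSM3 and RPL39, between -3.57 and -3.15. HP and HPR, GSTA2 and its relatives, and RPL9, RPS3A and RPL39 with their pseudogenes can share reads, and MT-TN is a transfer RNA of 73 bases inside the mitochondrial transcript, so these values are uncertain.

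The largest rises were mostly long transcripts. MALAT1, a nuclear long noncoding RNA (chr11:65265159-65273987, hg19), was at 11.3, 9.38 and 11.1 CPM without H89 and 115, 192 and 147 CPM with H89. The 3 libraries with H89 spread widely and yet lay far above the others, with a log2 change of 3.83 (SE 0.25, adjusted p = 2.54e-05) and 3.24 with the trends removed. CEMIP, which takes part in hyaluronan breakdown (chr15:81071684-81244117, hg19), was at 12.9, 12.8 and 12.7 CPM without H89 and 118, 109 and 107 CPM with H89. It varied little within either group and rose by 3.11 (SE 0.058), or 2.80 with the trends removed. MT-ND5, the mitochondrially encoded complex I subunit, was at 337, 354 and 355 CPM without H89 and 2340.2, 3421 and 3054 CPM with H89. Its rise of 3.08 became 3.91 with the trends removed, and the share of mitochondrial mRNAs in the libraries was higher beside it, as given above. ALMS1, a centrosome and ciliary gene, rose by 3.36, BIRC6, a giant ubiquitin ligase that restrains cell death, by 3.22, and SOS1, the exchange factor that activates Ras, by 2.86. RFX7, FRYL, MYCBP2, BLTP1, HIVEP1, WDFY3, ZBTB38, MED13 and SMG1 made up the other largest rises, from 2.87 to 3.01. With the trends removed these 9 lay between 1.83 and 2.27.

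**Figure D2:**
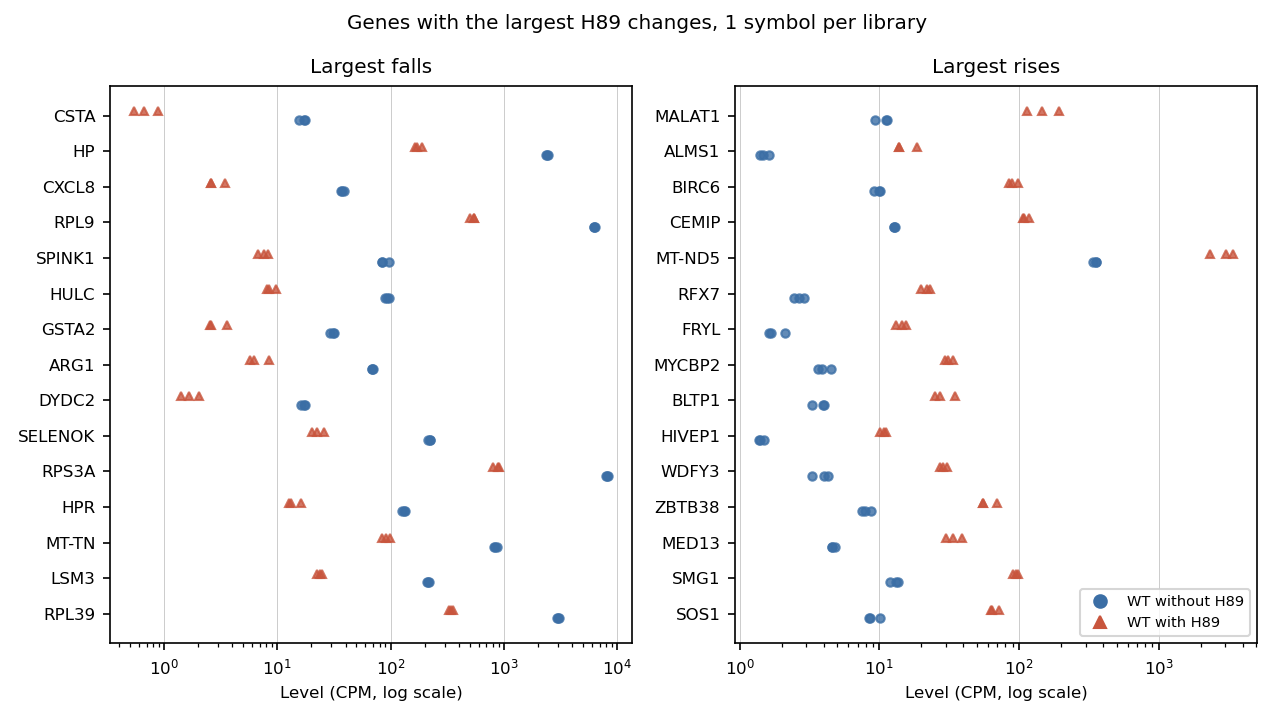
Level of the 15 largest falls (left) and the 15 largest rises (right) in every WT library, in CPM on a log axis, with circles for the 3 libraries without H89 and triangles for the 3 with it. In every gene shown the 2 groups lie apart, and MALAT1 and MT-ND5 show a wide spread with H89.

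Most subunits of PKA stayed under 2-fold, while its inhibitor genes were lower. The main catalytic subunit gene PRKACA was at 45.4, 45.0 and 49.5 CPM without H89 and 70.1, 70.4 and 58.0 CPM with H89, a log2 change of 0.50 (SE 0.072) that did not reach 2-fold although the groups did not overlap. PRKACB, the other catalytic subunit gene, lay at a low level, 1.63, 1.03 and 1.59 CPM without H89 and 2.95, 3.12 and 4.07 CPM with H89. It rose by 1.23 (SE 0.19), and with the trends removed it was at 0.86 and no longer past 2-fold. Of the regulatory subunits, PRKAR1A was at -0.19, PRKAR1B at -0.79 and PRKAR2A at 0.10, none of them past 2-fold. With the trends removed PRKAR1B was at -1.01 and past it, and PRKAR2A turned to -0.13. PKIG, which encodes an inhibitor that binds the free catalytic subunit, was at 76.0, 79.0 and 77.4 CPM without H89 and 27.0, 28.0 and 27.3 CPM with H89. It fell by 1.495 (SE 0.05), and was at -0.82 with the trends removed. PKIB, another inhibitor gene, fell by 2.32, at very low levels, from 1.53 ± 0.324 to 0.296 ± 0.0763 CPM (SD, n = 3). Of 9 listed subunit and inhibitor genes 7 were tested, 1 rose and 2 fell, with a median of -0.19. Among 9 other kinases that H89 is known to inhibit, 3 rose (RPS6KB1, ROCK1 and ROCK2) and 1 fell (RPS6KB2), with a median of -0.02. ROCK2, an effector of RhoA on the actin cytoskeleton, was at 22.2, 21.6 and 21.02 CPM without H89 and 60.5, 72.2 and 95.7 CPM with H89, and its libraries with H89 differed more among themselves than those without. Once the trends were removed ROCK2 alone of these 9 rose, at 1.11, and 4 fell, namely RPS6KB2, AKT1, AKT2 and SGK1.

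Genes of the cAMP and CREB pathway did not fall as a group. Of 24 tested, 10 rose and 1 fell, with a median log2 change of 0.81 beside 0.04 over all genes, and 6 rose and 1 fell with the trends removed (median 0.43). The coactivator genes lay at the top. EP300, a histone acetyltransferase, was at 12.5, 13.3 and 12.8 CPM without H89 and 64.3, 63.3 and 60.3 CPM with H89, a log2 change of 2.29 (SE 0.059) and 1.66 with the trends removed. Its close relative CREBBP was at 11.9, 11.7 and 12.3 CPM without H89 and 51.6, 54.5 and 51.5 CPM with H89, a change of 2.13, and neither gene's groups overlapped. PPARGC1A, the coactivator PGC-1alpha that CREB switches on in fasting, was at 11.9, 13.2 and 12.5 CPM without H89 and 41.2, 44.1 and 43.1 CPM with H89. It rose by 1.78 (SE 0.065, adjusted p = 3.28e-13) and by 1.04 with the trends removed. Of the CRTC coactivators, CRTC1 and CRTC2 rose by 1.36 and 1.09, with CRTC1 under 2-fold at 0.74 when the trends were removed, and CRTC3 was at 0.92. CREB1 itself was at 0.69, under 2-fold.

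The classical immediate targets of CREB went in different directions. EGR1, an immediate early transcription factor, was at 8.38, 8.95 and 7.87 CPM without H89 and 21.02, 18.2 and 19.7 CPM with H89, a rise of 1.23 and of 1.68 with the trends removed. NR4A1 and PER1, a nuclear receptor and a clock gene, rose by 1.01 and 1.08, and were at 0.46 and 0.41 with the trends removed, under 2-fold. ATF3, a stress-induced factor of the same family as CREB, was at 24.1, 23.4 and 24.0 CPM without H89 and 10.5, 8.85 and 9.89 CPM with H89 and was the only member of the list that fell (-1.29, SE 0.08, and -1.04 with the trends removed). FOS and JUNB had groups that overlapped, with log2 changes of 0.43 and -0.065. DUSP1, a phosphatase of MAP kinases, was at 70.2, 68.6 and 68.2 CPM without H89 and 37.3, 28.0 and 38.6 CPM with H89. All its libraries with H89 lay below those without, but its change of -0.997 was just short of 2-fold and was -0.17 with the trends removed. The repressor gene CREM was at -0.77, and at -0.97 with the trends removed, again short of the call.

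Promoters were searched on both strands for the full cAMP response element TGACGTCA and for its part TGACG, which the full element contains. RefSeq windows from 250 bases before to 50 after the start (GRCh38.p14) were at hand for 10392 of the genes tested, in 15025 windows. The full element was in 2.84% of all windows, 2.41% of those of genes that rose and 2.72% of those of genes that fell. For TGACG the shares were 31.6%, 28.0% and 32.5% in the same order. Of 21 genes of the cAMP list with a window, 14 held TGACG and 2, DUSP1 and CREM, the full element. A gene counts here when any of its windows held the sequence, and some have several, such as PDE4D with 8. The shares above are by window and none was taken by gene, so these counts cannot be set against them. The 150 bases before the start are printed here for DUSP1, as the listed gene with the element there, and for the 2 largest falls and 2 largest rises among genes with the element that were called in both fits, chosen after their values were seen. Capitals mark the element.
DUSP1: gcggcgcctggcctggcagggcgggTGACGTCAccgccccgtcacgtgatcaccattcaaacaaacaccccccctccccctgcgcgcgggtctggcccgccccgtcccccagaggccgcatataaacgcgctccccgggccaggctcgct
TRAPPC2B: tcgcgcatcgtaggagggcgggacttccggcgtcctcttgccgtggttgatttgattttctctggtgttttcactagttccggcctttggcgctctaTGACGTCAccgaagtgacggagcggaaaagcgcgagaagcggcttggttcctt
MYL6: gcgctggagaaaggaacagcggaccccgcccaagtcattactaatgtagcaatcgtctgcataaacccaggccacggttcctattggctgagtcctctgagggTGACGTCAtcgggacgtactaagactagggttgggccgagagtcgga
ZBTB38: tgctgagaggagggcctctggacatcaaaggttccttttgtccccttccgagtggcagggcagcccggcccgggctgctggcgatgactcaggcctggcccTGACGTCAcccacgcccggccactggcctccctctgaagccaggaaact
LPP: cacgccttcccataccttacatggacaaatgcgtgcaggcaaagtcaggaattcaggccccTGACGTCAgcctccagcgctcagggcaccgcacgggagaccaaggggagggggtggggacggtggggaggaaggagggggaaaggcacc
In DUSP1 (chr5:172771196-172771345, minus strand) the element begins 125 bases before the start. In TRAPPC2B (chr19:57363401-57363550, plus strand), a copy of a vesicle-tethering gene that can share reads with TRAPPC2, it begins 53 bases before, and in MYL6 (chr12:56158209-56158358, plus strand), a myosin light chain gene, 47 bases before. ZBTB38 (chr3:141368354-141368503, plus strand), a zinc finger gene that binds methylated DNA, has it 49 bases before its start, and LPP (chr3:188153748-188153897, plus strand), a focal adhesion gene, 89 bases before. TRAPPC2B and MYL6 fell by 2.65 and 2.60 on the log2 scale, whereas ZBTB38 and LPP rose by 2.90 and 2.75. Both pairs were picked for their direction. A match is a description of the sequence and no evidence of binding.

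Of the fasting genes downstream of this pathway, PCK1 and G6PC1 were lower with H89 while their coactivator gene PPARGC1A was higher. PCK1, the cytosolic enzyme that commits carbon to glucose, was at 133, 133 and 130.3 CPM without H89 and 61.2, 57.3 and 51.9 CPM with H89. It fell by 1.22 (SE 0.054, adjusted p = 3.64e-12), and by 1.40 with the trends removed. G6PC1, which releases glucose from its phosphate, was at 39.6, 40.3 and 41.3 CPM without H89 and 18.8, 21.2 and 18.2 CPM with H89. Its fall of 1.06 was just past 2-fold, and with the trends removed the change was -0.86, short of the call. Of 13 genes of gluconeogenesis and glycogen 3 fell and 1 rose (median -0.30), the third fall being that of UGP2, which makes UDP-glucose. In glycolysis and glucose transport 3 of 21 rose and 2 fell, with a median of 0.05 that lies beside that of all genes. The glucose transporter gene SLC2A1 was at 138, 139 and 135 CPM without H89 and 404, 402 and 342 CPM with H89, a rise of 1.48 and of 1.25 with the trends removed. HK2, the hexokinase of growing cells, rose by 1.15, while PGK1 and TPI1 of lower glycolysis fell by 1.11 and 1.003. In the fit without the trends TPI1 was at -0.49 and no longer called, unlike HK2 at 1.11 and PGK1 at -1.21. GAPDH was at -0.45, under 2-fold.

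Genes of fatty acid and triglyceride synthesis were mostly higher with H89 before the trends were removed. Of 16 tested, 10 rose and 0 fell (median 1.12 beside 0.04 over all genes). Their median exon length was 8073.5 bases, and in the tenth of genes from 6730 to 8137 bases 27.9% rose. With the trends removed 3 rose (median 0.42), beside 13.4% of all genes that rose in that fit, a share near theirs. FASN, the fatty acid synthase, was at 234, 224 and 232 CPM without H89 and 1473, 1523 and 1133 CPM with H89. Library 3 with H89 was the lowest of its group and still several times above every library without H89, and the log2 change was 2.58 (SE 0.11, adjusted p = 1.61e-07), or 1.49 with the trends removed. SCD, which makes oleic acid, was at 551, 565 and 577 CPM without H89 and 1805, 1791 and 1511 CPM with H89, and its change of 1.59 was 1.63 with the trends removed. ACLY, which supplies cytosolic acetyl-CoA, completed the 3 genes that rose in both fits, at 1.14 and 1.21. ACACA and ACACB, the acetyl-CoA carboxylases, rose by 1.39 and 1.18, and the lipogenic factors SREBF1 and MLXIPL by 1.21 and 1.27. These 4 were under 2-fold with the trends removed.

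Cholesterol synthesis was mixed, with 5 of 23 genes up and 2 down (median 0.19). LSS, which makes lanosterol, was at 31.9, 32.1 and 31.8 CPM without H89 and 129, 134 and 100.5 CPM with H89 and rose by 1.92, or 1.45 with the trends removed. The regulators SREBF2 and SCAP rose by 1.10 and 1.03, and were at 0.64 and 0.50 with the trends removed, under 2-fold. HMGCS1 of the mevalonate pathway was at 0.61, under 2-fold. Fatty acid oxidation went the other way. Of 17 genes 7 fell and 1 rose (median -0.84), and 7 fell and 0 rose with the trends removed (median -0.78). FABP1, the fatty acid carrier of liver cytosol, was at 1741, 1786 and 1705 CPM without H89 and 385, 393 and 377 CPM with H89, a change of -2.18 (SE 0.04) and -1.46 with the trends removed. ACADVL and ACAA1, of mitochondrial and peroxisomal oxidation, fell by 1.19 and 1.27. CPT1A, which admits fatty acids to mitochondria, was at 0.44, and PPARA, the factor that governs this programme, rose by 1.07, and was at 0.37 with the trends removed.

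Plasma proteins made by the liver were mostly lower with H89, apart from a few long genes such as APOB, F5 and C3. Of 17 plasma carrier proteins 9 fell and 0 rose (median -1.04), and 6 fell with the trends removed (median -0.54). ALB, the gene of serum albumin and the most abundant of these, was at 37142, 36497 and 37087 CPM without H89 and 16608, 15273 and 18543 CPM with H89. It fell by 1.13 (SE 0.058, adjusted p = 1.26e-10) and was at -0.89 with the trends removed, just under 2-fold. AFP, the fetal counterpart that liver cancers keep making, was at 9731, 9502 and 9749 CPM without H89 and 2659, 2605 and 3001 CPM with H89, a fall of 1.81 and of 1.53 with the trends removed. HPX, the haem scavenger, and AMBP, the precursor of alpha-1-microglobulin, fell by 2.21 and 1.75, and were at -1.90 and -0.95 with the trends removed, AMBP no longer called. SERPINA1, TF and TTR were lower in every library with H89 but by less than 2-fold, at -0.35, -0.20 and -0.52. With the trends removed TF, whose exons sum to 26038 bases in the deposited annotation, was at -1.27.

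Most apolipoprotein genes that changed were lower, and APOB was higher. APOA1, the main protein of HDL, was at 8441, 8418 and 8454 CPM without H89 and 1995, 1955 and 1852 CPM with H89, a change of -2.13 (SE 0.042), and -1.34 with the trends removed. APOH, APOC1 and APOA5 fell by 2.40, 2.36 and 2.08. APOB, the large scaffold of LDL (chr2:21224301-21266945, hg19), went up, at 1428, 1429.8 and 1549 CPM without H89 and 5747, 6577 and 6779 CPM with H89. Its rise of 2.12 (SE 0.06) was still 1.26 with the trends removed. Of 15 apolipoprotein and assembly genes 7 fell and 1 rose (median -0.94), and 4 fell and 1 rose with the trends removed. MTTP, which loads lipid onto APOB, had overlapping groups at 0.015. Among 10 acute phase genes 8 fell and 0 rose (median -1.27), ORM1 and ORM2, near-identical neighbours that can share reads, by 1.79 and 1.81. After removal of the trends 4 fell, and ORM1 and ORM2 were not among them, at -0.61 and -0.62. Of 34 coagulation and complement genes 12 fell and 3 rose (median -0.67), with 10 and 0 when the trends were removed. The fibrinogen chains FGB and FGG fell by 1.46 and 1.71, and FGA was at -0.91. F5 and C3, both long, rose by 1.49 and 1.08 and were at 0.97 and 0.57 with the trends removed.

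**Figure D3:**
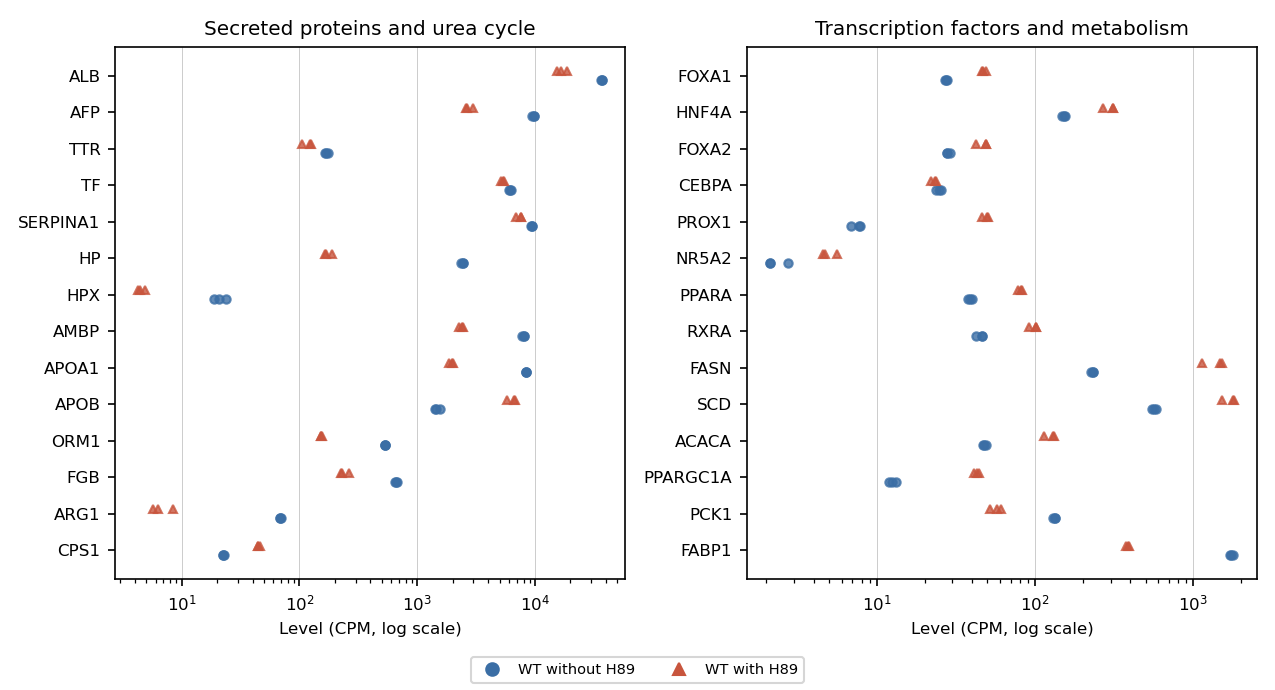
Level of 28 liver genes in every WT library, in CPM on a log axis, with circles for the 3 libraries without H89 and triangles for the 3 with it. Most secreted proteins lie lower with H89, APOB and CPS1 lie higher, and of the transcription factors and metabolic genes on the right PCK1 and FABP1 lie lower, CEBPA overlaps and the others lie higher.

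The transcription factors that define hepatocytes were mostly higher with H89. Of 25 tested, 10 rose and 1 fell (median 0.82), and 8 rose and 1 fell with the trends removed (median 0.65). PROX1, a homeobox factor of the liver lineage, was at 6.82, 7.79 and 7.76 CPM without H89 and 46.2, 49.7 and 50.7 CPM with H89. It rose by 2.72 (SE 0.073, adjusted p = 8.84e-15), and by 2.12 with the trends removed. TBX3 rose by 1.66 and by 1.605 with the trends removed. HNF4A, the nuclear receptor at the centre of the hepatocyte network, was at 153, 154 and 148 CPM without H89 and 309, 309.8 and 269 CPM with H89, all higher with H89, but its change of 0.96 missed 2-fold. FOXA1 and FOXA2 were at 0.79 and 0.73, and CEBPA had overlapping groups at -0.091. With the trends removed FOXA1 and FOXA2 passed 2-fold, at 1.02 and 1.23. NR1H3, the liver X receptor alpha, was the only member that fell, from 73.8 ± 1.81 to 28.1 ± 0.591 CPM (SD, n = 3), by 1.39 and by 1.29 with the trends removed.

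Metabolic enzymes of the liver were mostly lower. Of 26 genes of bile acid, drug and steroid metabolism 12 fell and 2 rose (median -0.87), and 10 fell and 3 rose with the trends removed. SULT2A1, which sulphates steroids and bile acids, was at 1252, 1190.2 and 1228 CPM without H89 and 281, 260.1 and 289.7 CPM with H89, a change of -2.14 (SE 0.046). GSTA1, a glutathione transferase, and AKR1C3, a steroid reductase, fell by 2.84 and 1.63, both with close relatives that can share reads. CYP1A1, the target of the aryl hydrocarbon receptor, rose instead, at 13.8, 12.7 and 13.2 CPM without H89 and 62.3, 57.1 and 54.8 CPM with H89, a change of 2.13 and of 2.57 with the trends removed. The canalicular pump gene ABCC2 rose by 1.03, and was at 0.64 with the trends removed. In amino acid breakdown and the urea cycle 8 of 21 fell and 0 rose (median -0.86), with 5 falling when the trends were removed. GNMT, which disposes of excess methionine, was at 45.1, 43.8 and 45.1 CPM without H89 and 4.15, 5.16 and 5.82 CPM with H89 and fell by 3.14. ASS1, the urea cycle enzyme that makes argininosuccinate, fell by 1.601, whereas CPS1, the first enzyme of the cycle, was at 0.99.

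Secreted and surface genes outside the liver programme also moved. Of 24 small protease inhibitor, keratin, S100 and galectin genes 16 fell and 1 rose (median -1.60), and 10 fell and 2 rose with the trends removed. This list and those of giant ubiquitin ligases, chromatin remodellers and basement membrane genes were drawn up with the largest changes of these libraries known. All other lists were also chosen with earlier results of these data known, so the direction of any list is no independent evidence. S100A6, a calcium-binding protein, fell by 1.57 and KRT18, the keratin of simple epithelia, by 1.09, and both were under 2-fold with the trends removed, at -0.65 and -0.64. In contrast 12 of 16 basement membrane and matrix genes rose and 0 fell (median 1.59), with 6 and 1 when the trends were removed. LAMB1, a laminin chain, was at 72.9, 72.1 and 75.7 CPM without H89 and 259.8, 278 and 278 CPM with H89, a rise of 1.89 (SE 0.044) and of 1.56 with the trends removed. LAMC1 and NID1, which join it in the basement membrane, rose by 1.55 and 1.64, and by 1.17 and 1.62 with the trends removed. FN1, fibronectin, was at 3896, 4055 and 4093 CPM without H89 and 13704, 14655 and 12649 CPM with H89, and its rise of 1.77 was 0.82 with the trends removed. The desmosome gene DSP rose by 2.16 and the tight junction gene TJP1 by 2.03. In epithelial and mesenchymal programmes 6 of 16 genes rose with 0 falling (median 0.71), and these held the epithelial cadherin CDH1 as well as CDH2 and ZEB1 of mesenchymal cells.

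Interferon and antigen presentation genes were mostly lower before the trends were removed. Of 26 interferon and MHC class I genes 13 fell and 1 rose (median -0.99), and 5 fell and 1 rose with the trends removed, beside 14.8% of all genes that fell in that fit, a share near theirs. B2M, the light chain of MHC class I, was at 1705, 1591 and 1602 CPM without H89 and 297, 263 and 313 CPM with H89. Its fall of 2.49 (SE 0.059) was 2.75 with the trends removed, with its length taken as 6079 bases of summed exons. BST2 and PSMB8 fell by 1.77 and 1.79, but with the trends removed BST2 was at -0.75, under 2-fold, and PSMB8 at -1.38. Among 16 NF-kB and chemokine genes 3 fell and 2 rose, with a median of -0.12. CCL20, a chemokine that attracts lymphocytes, was at 976, 978 and 987 CPM without H89 and 183, 169 and 188 CPM with H89 and fell by 2.45, while TNFAIP3 and ICAM1 rose by 1.10 and 1.10.

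Small subunits of large machines fell, in both fits and in large numbers. Of 79 cytosolic ribosomal protein genes 70 fell and 0 rose (median -1.80), and 50 fell with the trends removed (median -1.22). RPLP0, of the ribosomal stalk, was at 6210.2, 6314 and 6164 CPM without H89 and 2719, 2662 and 2775 CPM with H89, a change of -1.20 and -0.87 with the trends removed. RPL35 fell by 3.10 and by 2.49 with the trends removed. Many of these genes have pseudogenes that can take reads. Of 60 nuclear-encoded subunits of the respiratory chain 43 fell and 0 rose (median -1.53), and 34 fell with the trends removed (median -1.18). That fit took median lengths of 2930 bases for the ribosomal and 2313 bases for the respiratory chain list, as summed exons. These need not be the lengths of the transcripts made, and how fully the trend was removed from these genes was not tested. COX7A2, a subunit of cytochrome oxidase, was at 702, 726 and 681 CPM without H89 and 88.6, 78.8 and 88.1 CPM with H89, a change of -3.05 (SE 0.051). The mitochondrially encoded partners of these subunits went the other way, with 10 of 13 mRNAs up and 0 down (median 1.85), and 12 up with the trends removed (median 2.80). MT-CYB, the cytochrome b of complex III, was at 673, 667 and 664 CPM without H89 and 2203, 2616 and 2385 CPM with H89, a rise of 1.85 (SE 0.054). MT-CO1 was at 6048, 5995 and 5997 CPM without H89 and 12926, 17175 and 15591 CPM with H89, a rise of 1.34, and in both of these genes library 1 was the lowest with H89. Since these mRNAs are short, removal of the length trend enlarged their change.

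The proteasome core and the splicing core followed the ribosomal pattern. Of 14 proteasome core subunits 10 fell and 0 rose (median -1.29), PSMA4 and PSMB5 by 2.36 and 1.97. Without the trends 6 fell, PSMA4 among them at -2.72, and PSMB5 was at -0.93, under 2-fold. Of 20 LSM and snRNP core proteins 17 fell and 0 rose (median -1.55), and 10 fell and 1 rose with the trends removed. LSM3, a subunit of the ring that binds U6 RNA, was at 218, 212 and 209 CPM without H89 and 23.9, 22.2 and 24.6 CPM with H89, a change of -3.18 (SE 0.051) and -2.75 with the trends removed. SNRPG and SNRPE of the Sm ring fell by 2.81 and 2.52.

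At the other end stood very large proteins. All 14 giant ubiquitin ligases tested rose (median 2.02), and 9 rose with the trends removed (median 1.20), with a median exon length of 16523 bases. HUWE1, a ligase with many nuclear substrates, was at 55.8, 59.2 and 58.5 CPM without H89 and 236, 242 and 211 CPM with H89, a rise of 1.99 (SE 0.054) and of 1.18 with the trends removed. UBR4, a ligase of the N-degron pathway, rose by 2.17. Of 34 histone methyltransferases and chromatin remodellers 28 rose and 0 fell (median 1.76), and 13 rose with the trends removed (median 0.91). KMT2A, the MLL methyltransferase, was at 7.10, 7.44 and 8.05 CPM without H89 and 38.8, 39.6 and 40.9 CPM with H89, a rise of 2.40 and of 1.41 with the trends removed. CHD8 rose by 1.85 and was at 0.97 with the trends removed.

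HDAC1 itself was nearly level. It was at 679, 699 and 678 CPM without H89 and 630.1, 606 and 645 CPM with H89 (chr1:32757684-32799236, hg19), lower in each library with H89. Its log2 change of -0.13 (SE 0.039, adjusted p = 0.00692) was far from 2-fold, and its sign turned to 0.16 with the trends removed and to 0.018 in the fit of all 12 libraries. HDAC2, its close partner, was at 0.26. Of 17 members of the HDAC family 3 rose and 2 fell, and their median of -0.09 lay near that of all genes. With the trends removed 1 rose and 4 fell (median -0.24), beside 13.4% and 14.8% of all genes. HDAC3, the catalytic subunit of the NCOR complex, was at 152, 154 and 152 CPM without H89 and 73.7, 71.8 and 71.7 CPM with H89, a fall of 1.08, and -0.90 with the trends removed. SIRT1, an NAD-dependent deacetylase, was at 4.51, 4.13 and 4.43 CPM without H89 and 14.3, 12.97 and 16.5 CPM with H89, a rise of 1.74 and of 1.72 with the trends removed. Of 33 class I HDAC corepressor subunits 11 rose and 4 fell (median 0.57), and 4 rose and 3 fell with the trends removed. The scaffold NCOR1 was at 16.96, 17.9 and 18.6 CPM without H89 and 75.8, 82.3 and 82.6 CPM with H89, and its rise of 2.17 was 1.34 with the trends removed. SIN3A, the scaffold of another complex, rose by 1.36 but was at 0.68, under 2-fold, with the trends removed. SAP18, a small subunit of it, fell by 1.76 and by 1.49 with the trends removed.

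In insulin and IGF signalling 15 of 26 genes rose and 2 fell (median 1.14), and 6 rose and 4 fell with the trends removed. IGF1R, a receptor of this pathway, was at 31.9, 29.7 and 32.6 CPM without H89 and 125, 117 and 105 CPM with H89, and rose by 1.88 or by 1.16 with the trends removed. FOXO1 and FOXO3, factors that insulin excludes from the nucleus, rose by 1.30 and 1.80, and by 1.21 and 1.52 with the trends removed. IGFBP3, a binding protein for IGFs in blood, fell by 1.79 and was at -1.599 with the trends removed. Of 23 S phase genes 4 fell and 1 rose (median -0.46), among them CCNE1 at -1.602, or -0.87 and under 2-fold with the trends removed. Of 23 mitosis genes 4 fell and 3 rose (median -0.27), and 5 fell and 1 rose with the trends removed (median 0.24). The small cyclin-dependent kinase partner CKS2 was at -2.87 and the long proliferation marker MKI67 at 2.34, or -1.96 and 1.67 with the trends removed.

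In most stress pathways the counts lay near the background of 18.7% up and 19.1% down. In the list of ATF4 targets 2 of 21 rose and 5 fell, in endoplasmic reticulum folding 3 of 22 rose and 3 fell, and in heat shock chaperones 2 of 18 rose and 3 fell. PHGDH, the first enzyme of serine synthesis, was at -1.35 and ATF4 itself at -1.10, or -1.81 and -0.63 with the trends removed, where ATF4 was under 2-fold. HSPE1, the mitochondrial co-chaperonin, was at 489, 513 and 493 CPM without H89 and 63.3, 53.9 and 65.3 CPM with H89, a log2 change of -3.04, and BAG3, a partner of HSP70, rose by 1.23. Among 17 NRF2 and pentose phosphate genes 3 rose and 3 fell, with thioredoxin (TXN) at -2.34. Of 21 hypoxia genes 3 rose and 3 fell, of 21 p53 targets 4 rose and 3 fell, of 26 SRF and YAP targets 5 rose and 4 fell, and of 28 autophagy and lysosome genes 3 rose and 3 fell. Of 6 genes listed with the metallothioneins MTF1, their metal-sensing factor, and SLC30A1, a zinc exporter, rose, while MT1F and MT2A fell, and MT2A, at -1.05, turned to 0.12 with the trends removed. The replication-dependent histone genes, of which 9 were tested, had 1 up and 3 down. Among 7 nuclear long noncoding RNAs 5 rose and 0 fell (median 2.57), and 5 rose and 1 fell with the trends removed (median 1.70). NEAT1, the core of paraspeckles, was at 17.3, 15.3 and 17.1 CPM without H89 and 81.8, 159.8 and 81.1 CPM with H89. Library 2 with H89 stood well above the others of its group, which lay close together. NORAD, another of the 5 that rose with the trends left in, is known as a largely cytosolic RNA.

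**Figure D4:**
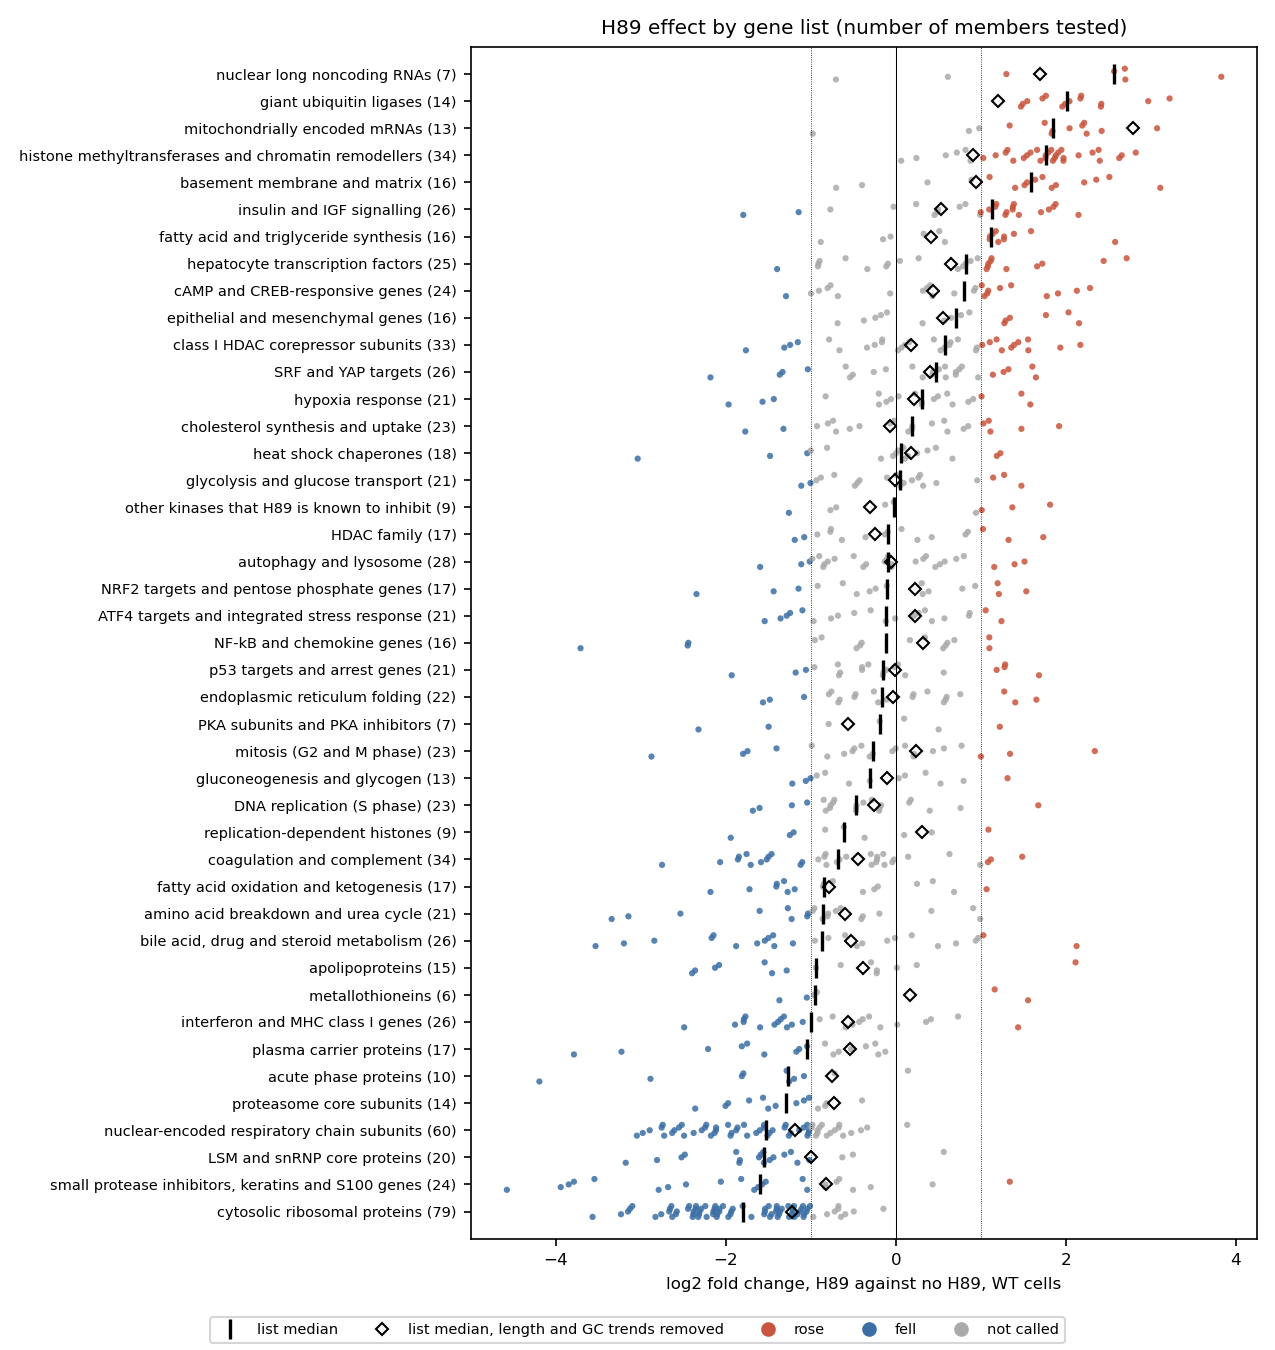
Log2 fold change of H89 against no H89 in WT cells (x axis) for every tested member of 43 gene lists (y axis, number tested in brackets). Red points rose, blue points fell and grey points were not called, black bars are list medians and open diamonds are the medians with the length and GC trends removed. Ribosomal protein genes have the lowest median at -1.80 and nuclear long noncoding RNAs the highest at 2.57, and the diamonds of most of the lists with large medians lie nearer 0 than the bars.

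The response in wild-type cells was set against that in S434A cells by a test of the difference between the effects, in 1 fit of all 12 libraries. The WT baseline of this test is the same libraries without H89 that stood apart from all others in make-up. A possible batch of them cannot be told apart from a difference in the response to H89. Of 14435 genes 1795 had a higher effect in WT (12.4%) and 1696 a lower one (11.7%), and with the trends removed 830 (5.81%) and 995 (6.97%) of 14280. Of 2632 genes that rose in WT and had this test, 1076 had a higher effect in WT, and of 2665 that fell, 1266 had a lower one. These genes were called in the same WT libraries that enter the difference, which favours this direction. The 10 named genes with the smallest p of the difference moved further in WT, and their choice by this test favours a large difference. EP300 was at 2.43 in WT and at 0.59 in S434A in that fit, a difference of 1.84 (SE 0.11, adjusted p = 7.46e-06). APOA2, a protein of HDL, was at -1.40 and -0.26, a difference of -1.13. Without H89 the S434A libraries lay between those of WT without and with H89 in both genes. On the scaling of all 12 libraries EP300 was at a mean of 41.3 CPM in S434A and 12.9 CPM in WT without H89, and at 62.0 and 69.5 CPM with it. APOA2 had 2027 CPM in S434A and 4207 CPM in WT without H89, and 1688 and 1597 CPM with it. Among the largest rises in WT, MALAT1 had no called difference (3.98 in WT and 2.35 in S434A, adjusted p = 0.0682), and nor did BIRC6 (1.06, adjusted p = 0.307). Removal of the trends gave MALAT1 a called difference of 1.86 (adjusted p = 0.00117), as had SOS1, RFX7 and MED13 at 1.46, 1.01 and 1.22, while BIRC6 at 0.81 had none. The S434A libraries without H89 varied far more than the others, with a biological coefficient of variation of 0.350, and leaving out replicate 3 of them moved the counts to 2121 and 2347.

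**Figure D5:**
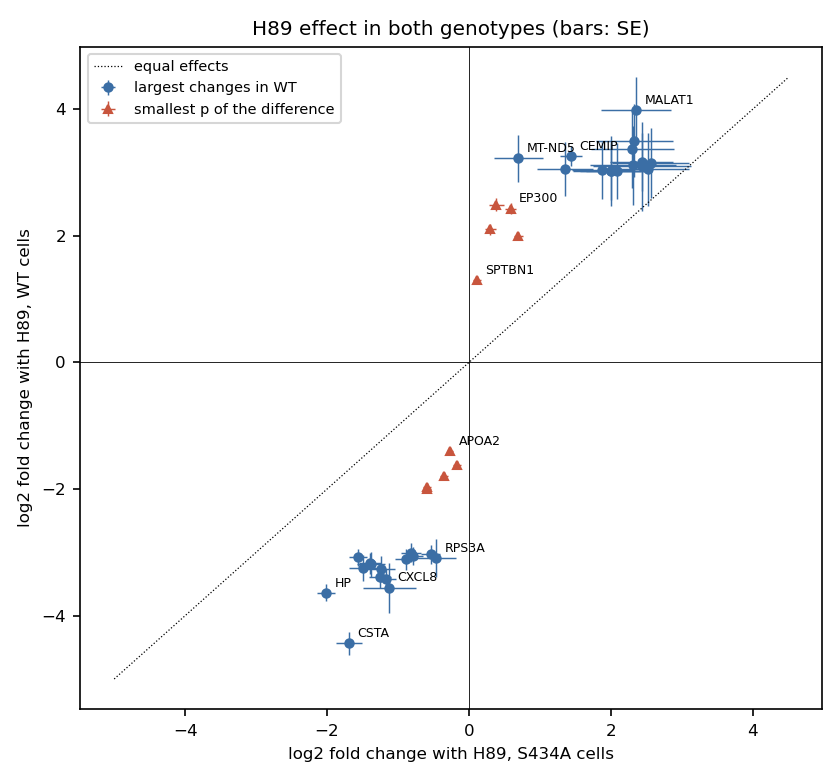
Log2 fold change with H89 in WT cells (y axis) against that in S434A cells (x axis), both from the fit of all 12 libraries, for the genes with the largest changes in WT (circles) and those with the smallest p of the difference (triangles). Bars are standard errors and the dotted line marks equal effects. Every gene shown lies farther from 0 in WT than in S434A, a direction that the choice of genes by their change in WT favours, and MT-ND5 lies at 3.22 in WT and 0.70 in S434A.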

How the data were processed

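Total RNA was sequenced from 12 HepG2 libraries in 4 groups of 3. The authors deposited raw counts for each gene. Per the file headers these came from featureCounts 2.0.1, which summed reads on exons of an hg19 annotation with no strand option. Bowtie 0.12.2 and hg19 are named in the submitters' processing notes. The library kit, its strandedness, and filters before counting were not stated, so reads of overlapping or antisense genes and of near-identical copies cannot be told apart. Of 62475 gene identifiers 56803 had a symbol.

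Counts of the 6 WT libraries were filtered with filterByExpr (minimum count 10), scaled by TMM and tested with edgeR 4.0.16 (R 4.3.3), glmQLFit and glmQLFTest, with Benjamini-Hochberg adjustment over all genes tested. The spread was taken from the WT libraries alone because the S434A libraries without H89 varied more. The difference between genotypes was the interaction term of a fit of all 12. The length and GC trends were removed by offsets per library (splines with 5 degrees of freedom, prior count 0.5). Standard errors are those of the log2 fold changes. Alternatives were DESeq2 1.42.0, other scalings and filters, a replicate block, left-out replicates, a test against a 2-fold change and the 12-library fit.

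Genes named are the 15 largest changes each way among genes called in both fits with a mean of at least 10 CPM, without overlap between the groups, up to 4 called members of each list with the smallest p together with members the list is known for, the 5 smallest p of the difference each way, and PKA genes and HDAC1. The members and lists were chosen with earlier results of these data known. No label ties same-numbered libraries, and their deviations correlated at -0.014, 0.020 and 0.060, so the numbers were not taken as pairs. On simulated counts the test recovered 97.9% of 95 genes changed 3-fold in WT (13950 genes) and 57.6% of 99 for the difference (14171 genes). Those counts had few changed genes, no length trend and the same spread of a gene in every group. The data differ in all of these, so the recovery checks the code and does not measure recovery in the data. A few list members are not reported here by name, though list counts include them.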

Additional observations from a re-analysis of the deposited data

Results flagged for a closer look

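The H89 effect differed between genotypes in 28 of the genes with the largest changes in WT or the smallest p of the difference. The test was the interaction term of edgeR's quasi-likelihood test, called at an adjusted p under 0.05 and a difference over 2-fold. The genes with the smallest p, 5 each way, were taken from called genes, so their call was fixed by the choice. The others were picked for a large change in WT libraries that enter the difference, which favours a call. A possible batch of the WT libraries without H89 cannot be told apart from these differences. The differences below are the log2 effect in WT minus that in S434A, so that a negative value belongs to a gene lower in WT with H89 by more than in S434A. In each of the 28 the mean of the S434A libraries without H89 lay between the WT means without and with H89, and the effect was larger in WT, a direction that the choice of these genes favours. Differences were also called in members of the gene lists. Among them 48 of 79 ribosomal protein genes and 32 of 60 nuclear-encoded respiratory chain genes had a lower effect in WT. Of 34 methyltransferase and remodeller genes 16 had a higher one. Over all genes 11.7% had a lower and 12.4% a higher effect, and 6.97% and 5.81% with the trends removed. These list counts are from the fit with the trends left in.

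Among genes of small secreted and liver proteins the differences were -2.74 for CSTA, -2.44 for CXCL8, -2.14 for SPINK1, -1.62 for HP, -1.51 for HPR, -1.13 for APOA2, -1.82 for ARG1 and -1.76 for GSTA2. The noncoding RNA gene HULC was at -2.02, DYDC2 at -1.79 and the selenoprotein gene SELENOK at -2.22. Among ribosomal, splicing and mitochondrial genes the differences were -2.62 for RPS3A, -2.26 for RPL9, -2.18 for RPL39, -1.42 for RPL27A, -1.37 for RPS20, -2.49 for LSM3 and -2.27 for MT-TN. The corepressor subunit SAP18 was at -1.45 and the dynein light chain gene DYNLL1 at -1.44.

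The positive differences were 1.84 for EP300, 1.80 for HECTD4, 1.19 for SPTBN1, 1.30 for CHD8, 2.10 for FRAS1, 1.82 for CEMIP, 2.53 for MT-ND5 and 1.70 for HIVEP1. The S434A libraries without H89 differed widely among themselves. CXCL8 was at 3.17, 7.81 and 12.9 CPM in them (on the scaling of all 12 libraries), RPS3A at 709, 1480.5 and 2117 CPM, and MT-ND5 at 3534, 1539.8 and 1069 CPM. EP300 varied less, at 39.1, 46.3 and 38.4 CPM. With the trends removed, SAP18 (-0.63, adjusted p = 0.0544) and GSTA2 (-0.59, adjusted p = 0.0714) missed the adjusted p, and the differences of HECTD4 (0.81), SPTBN1 (0.46), CHD8 (0.61), RPS20 (-0.59), APOA2 (-0.64), SPINK1 (-0.84) and ARG1 (-0.93) were under 2-fold as well, whereas MALAT1, SOS1, RFX7 and MED13 gained a call.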

How the results depend on the processing

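The WT counts stayed within 1.5 times of 2644 up and 2697 down under every alternative run, at 1867 and 2103 when tested against a 2-fold change, 1879 and 2075 with the trends removed and 3148 and 3318 with no filter. The 12-library fit gave 3201 and 2285, with its median at 0.20 beside 0.04, and DESeq2 2483 and 2777. Leaving out 1 library gave 2643 to 2743 up and 2715 to 2914 down. With the replicate number as a block the counts were 2632 and 2707, and no named call changed. Not every library correlated best with its own number. The difference between genotypes moved from 1795 higher and 1696 lower to 830 and 995 with the trends removed. With the replicate block it gave 1744 and 1744, and leaving out 1 library gave 1533 to 2121 higher and 1543 to 2347 lower. A left-out library leaves 2 in its group, which share the spread of the others.

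Of 199 named gene results 130 kept direction and call with the trends removed, 65 lost the call, 1 gained it and 3 changed sign, MT2A to 0.12, PRKAR2A to -0.13 and HDAC1 to 0.16. In the 12-library fit HDAC1 was at 0.018 and 17 lost the call. The 199 leave out some genes named above that gained a call with the trends removed, such as FOXA1, FOXA2, AKT1, AKT2 and SGK1. Of 86 list counts 40 moved by over 1.5 times with the trends removed. The causes were not tested. Depth limits genes of few CPM such as PKIB and PRKACB.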
